A study of Mus musculus with 8 samples.

Results

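The cytosolic ribosomal protein genes were taken from the gene table by symbol: every gene named Rpl or Rps followed by a number and, in some, a further letter or digit, together with Rpsa, Rplp0, Rplp1 and Rplp2, and without the Rps6k kinases and symbols marked as pseudogenes. The rule found 84 of the 18605 genes: 31 proteins of the small subunit, 43 of the large subunit, 3 of the ribosomal stalk and 7 paralogues (Rpl3l, Rpl7l1, Rpl10l, Rpl22l1, Rpl32l, Rpl39l and Rps27l) whose symbols differ from a core gene by a suffix. The libraries were RNA-seq of C3H10T1/2, a mouse mesenchymal stem cell line of strain C3H and embryonic origin, in 4 groups of 2 libraries. NC cells carried the non-target control and KD-Nap1l2 cells an shRNA against Nap1l2, a nucleosome assembly protein, delivered by lentivirus; NC-7d and KD-Nap1l2-7d cells were the same cells after 7 days in osteogenic medium, which holds dexamethasone, ascorbic acid, β-glycerol phosphate and serum in high-glucose DMEM. No group was kept 7 days without this medium, so its effects cannot be told apart from those of time in culture. The labels do not say whether the 2 libraries of a group came from separate cultures. The p-values therefore measure the spread between these libraries, which may be technical.

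The ribosome translates mRNA into protein. Its small subunit holds the mRNA and reads the codon, its large subunit forms the peptide bond and contains the tunnel through which the new chain leaves, and the stalk recruits the elongation factors. Ribosomal protein genes are transcribed in parallel in growing cells, and most of their mRNAs start with a terminal oligopyrimidine (TOP) tract, a C followed by a run of C and T bases, through which mTORC1 signalling sets their translation. RNA-seq counts mRNA and so measures the amount of these transcripts, not their translation or the number of ribosomes.

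Start sites are shown for some of the members named below, since the TOP tract is the sequence feature these genes are known for. RefSeq start sites of build GRCm38.p6 were found for 64 of the 84 genes, with 76 starts in all. Each window runs 5′ to 3′ on the gene's strand from 10 bases before the annotated start to the 15th base of the transcript; capitals mark a C that lies within 5 bases of the start, on the gene's strand, and the unbroken C and T bases that follow it, where these number at least 4. C and T bases ahead of that C, as in the Rpl34 window, stay in lower case.
Rps6: gaagtcgggCCTCTTTTTCgtgacg
Rps27: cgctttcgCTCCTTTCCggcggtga
Rplp2: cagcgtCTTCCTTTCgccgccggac
Rpl31: tcctcgCCTCCCCgtgacccggaag
Rpl34: cttttCCTCTTCCggggacggtgct
Rpl39: gctccgCCTCTagcgacttcttcta
Rpl11: ccataaggccacggggccggaagtc
Rpl22l1: gcgcaagcccgttCTCTTCCCacgg
Rps27l: cctccccgccgCCTCTatcccggaa

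These windows lie at chr4:86857353-86857377 (minus strand) for Rps6, chr3:90213634-90213658 (minus) for Rps27, chr7:141447641-141447665 (plus) for Rplp2, chr1:39367841-39367865 (plus) for Rpl31, chr3:130730323-130730347 (minus) for Rpl34, chrX:37085208-37085232 (minus) for Rpl39, chr4:136053379-136053403 (minus) for Rpl11, chr3:28805498-28805522 (plus) for Rpl22l1 and chr9:66946076-66946100 (plus) for Rps27l. Rpl34 and Rps27l have a second annotated start that is not shown, where Rpl34 has a marked stretch of this kind and Rps27l has none. Such a stretch was found at 32 of the 76 starts of ribosomal protein genes, or 42.1%. It was found at 18.3% of all 32851 RefSeq starts, which belong to 27025 genes, more than the 18605 of the gene table. The Rpl11 window held none, nor did those of Rpl4, Rpl10, Rpl23, Rpl27, Rps3, Rps4x and Rpsa, which are not shown. The windows shown thus hold the stretch more often than the starts of the whole set. An annotated start can lie some bases from the one a cell uses, so a window without the stretch says nothing about the transcript made in these cells.

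The libraries summed to between 17420284 and 19427359 estimated counts, and TMM factors lay between 0.958 and 1.05. Nap1l2 itself had 3 and 3 counts in NC, 2 and 7 in KD-Nap1l2, 15 and 5 in NC-7d and 7 and 13 in KD-Nap1l2-7d, so these files cannot check the knockdown, and the groups are named by their labels throughout. Of the 13 mesenchymal markers, 11 were at 10 FPKM or more in every library, among them Vim, Col1a1 and Ly6a at no less than 1562, 343 and 761 FPKM, while Thy1 ran from 0.59 to 5.79 FPKM and Nt5e was at or near 0. The summed FPKM of the endothelial and of the epithelial markers reached at most 1.56 and 2.13, and that of the 4 blood cell markers in the table at most 0.30. FPKM is the authors' value scaled to gene length and library size. Expected counts between replicates differed by more than sampling noise in every group, so no library is a repeat of another.

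Ribosomal protein genes held 3.99% and 3.70% of all estimated counts in the NC libraries and 3.49% and 3.80% in those of KD-Nap1l2. At 7 days the share was 3.14% and 3.40% in NC-7d and 3.43% and 3.58% in KD-Nap1l2-7d. As group means, this was 3.85% ± 0.203 (SD, n = 2) in NC, 3.65% ± 0.224 in KD-Nap1l2, 3.27% ± 0.187 in NC-7d and 3.50% ± 0.104 in KD-Nap1l2-7d. Both NC-7d libraries lay below both NC libraries and also below both KD-Nap1l2-7d libraries, while the KD-Nap1l2-7d libraries overlapped those of KD-Nap1l2. No test was made of this share, and with 2 libraries against 2 an exact test could not give a p below 0.333. The balance between the subunits was nearly constant: counts of small subunit genes were between 0.749 and 0.777 times those of large subunit genes in the 8 libraries, and it was higher in both NC-7d libraries than in both NC libraries (0.771 ± 0.0078 against 0.753 ± 0.0057, SD, n = 2).

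**Figure D1:**
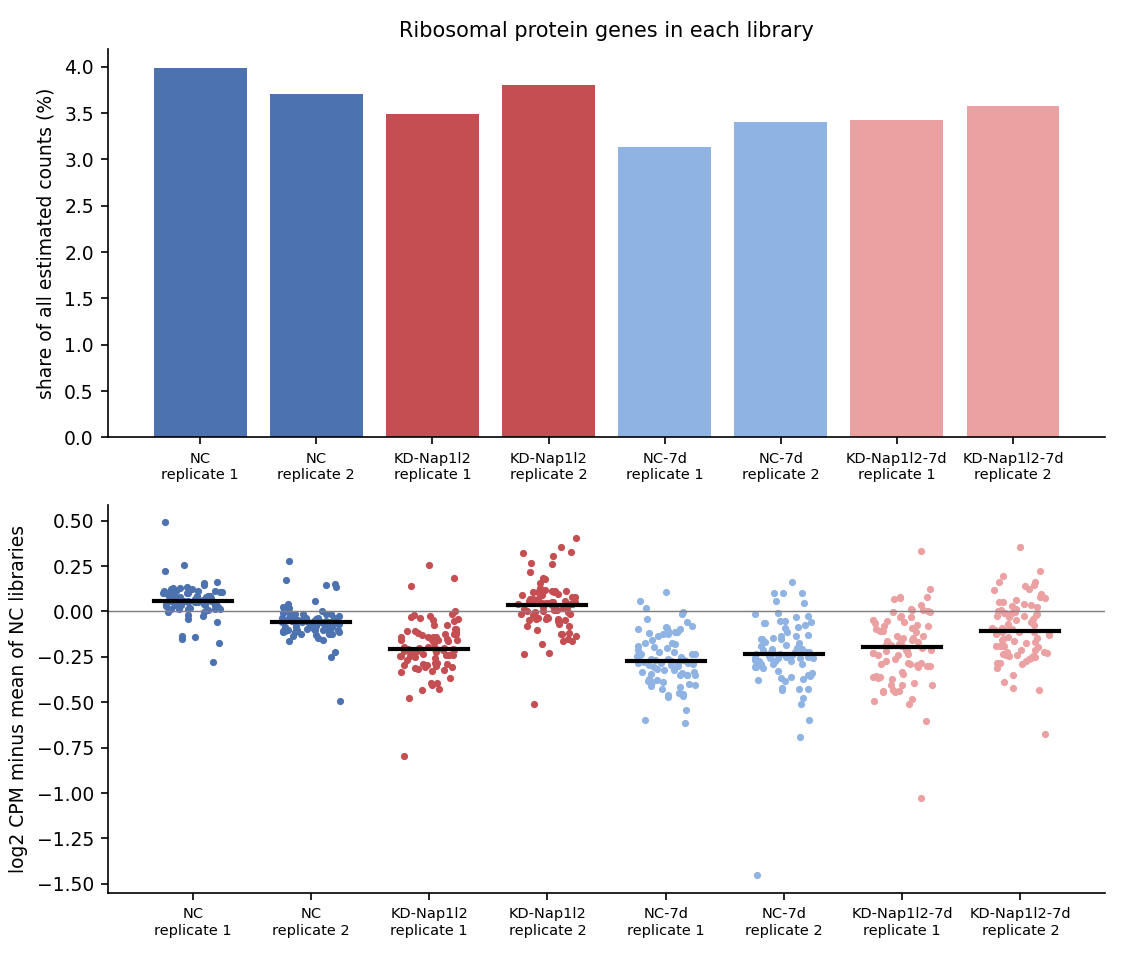
The upper panel shows the share of all estimated counts, in percent, held by the 84 genes in each of the 8 libraries. In the lower panel, each of 82 tested genes is a point, its log2 CPM in a library minus its mean over the NC libraries, with a black line at the median: KD-Nap1l2 replicate 1 has its median at -0.21 and replicate 2 at 0.04, and the NC-7d libraries have theirs at -0.27 and -0.24.

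The whole set shifted together between libraries of one group as well as between groups. In KD-Nap1l2, 78 of the 82 tested genes were higher in replicate 2 than in replicate 1, with a median difference of 0.23 on the log2 scale. In NC, 71 of the 82 were lower in replicate 2, with a median difference of -0.12, and the medians in NC-7d and KD-Nap1l2-7d were 0.04 and 0.07. The median over all genes moved by no more than 0.02 between the replicates of any group. Differences between groups are therefore set below against shifts of this size between replicates. After each library's median was subtracted, the core genes, which are all but the paralogues, ranged over a median of 0.29 on the log2 scale across the 8 libraries, against 0.43 before. Rpl34 and Rps27 had the widest ranges after that step, 0.78 and 0.62.

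Levels between genes can be compared only per length, and the FPKM values spanned a wide range. The highest mean levels were those of Rpl41, which encodes a very short basic protein of the large subunit, at 1703 FPKM, and of the small subunit genes Rps26 and Rps2, at 1548 and 1536 FPKM. Rpl41 ran from 1331 to 1880 FPKM over the 8 libraries, Rps26 from 1201 to 1840 and Rps2 from 1361 to 1705, so that these neighbours in the order did not differ beyond their spread. The median core gene stood at 607 FPKM, 56 of the 77 core genes lay within 2-fold of it, and 12 were above 1000 FPKM. Among genes with a mean of at least 50 counts, the low end was formed by Rps6, the small subunit protein phosphorylated by the S6 kinases, at 30.0 FPKM, Rpl7l1 at 41.6 FPKM and Rps15a at 44.1 FPKM. Rps6 had 38.1 and 27.2 FPKM in NC, 33.5 and 26.3 in KD-Nap1l2, 29.8 and 27.7 in NC-7d and 31.4 and 25.8 in KD-Nap1l2-7d. Rpl7l1 ran from 33.8 to 49.3 FPKM and Rps15a from 38.1 to 51.9, so the ranges of these 3 genes touched or overlapped. Only 4 paralogues, described below, were lower. Rps15a had a mean of 4177 counts and Rps27 of 3954, at 44.1 and 686 FPKM. The low FPKM of Rps15a thus rests on the gene length used for scaling, not on a low count. The 10 highest genes were largely the same in each library: Rpl23a, Rpl41, Rps2, Rps12, Rps24 and Rps26 were among them in all 8.

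**Figure D2:**
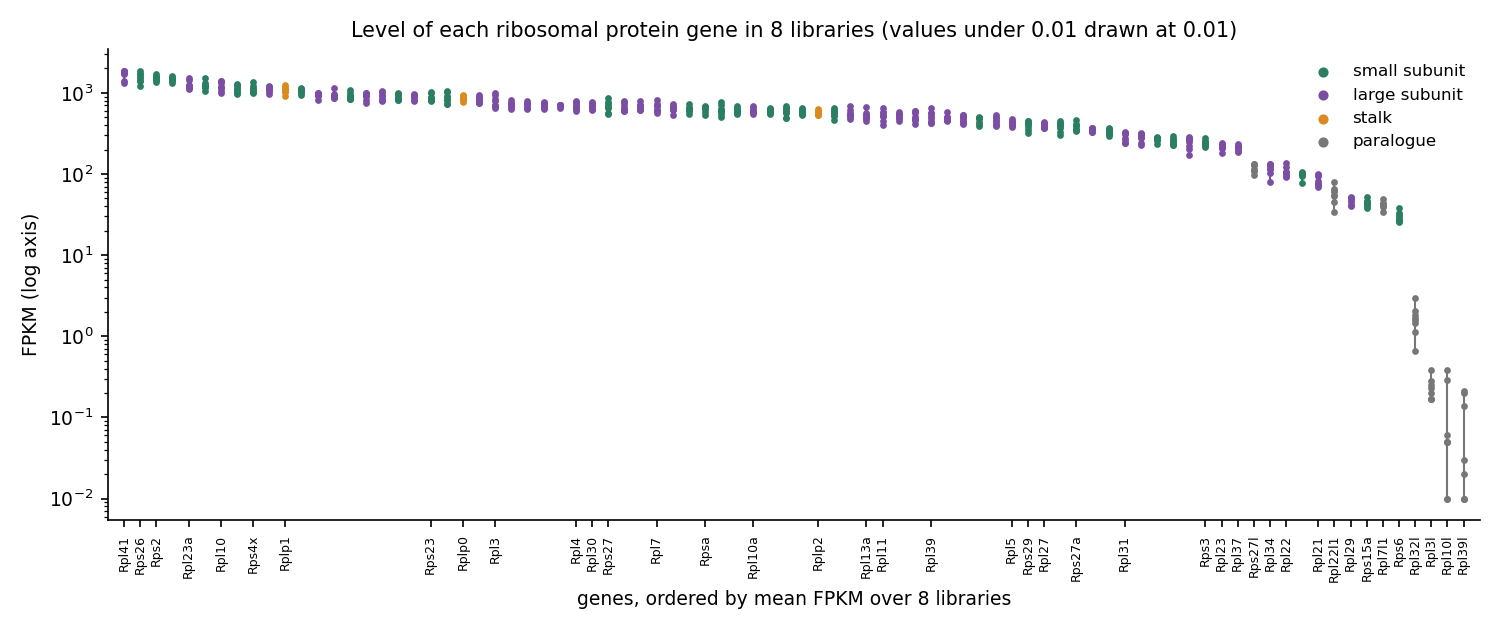
FPKM of the 84 genes on a log axis, ordered by mean FPKM, with 1 point per library and a line from the lowest to the highest; part of the genes are labelled. Most core genes lie between 100 and 1000 FPKM or above, and Rpl32l, Rpl3l, Rpl10l and Rpl39l lie at the far right with means from 1.67 down to 0.08 FPKM.

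The paralogues were at 3 levels. Rps27l, Rpl22l1 and Rpl7l1 were expressed in every library, with means of 119, 56.9 and 41.6 FPKM. Rpl32l and the muscle paralogue Rpl3l were near the detection limit, at 1.67 and 0.23 FPKM, with 6.71 to 31.5 and 6.27 to 14.0 normalized counts per library. Rpl10l and Rpl39l, paralogues known from the testis, had at most 7 and 2.2 counts in any library and were not tested, which leaves 82 tested genes among 13470. A count of 0 in a library still allows up to 3 counts, for counting error only.

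Before induction, no ribosomal protein gene passed the test between KD-Nap1l2 and NC. Calls are adjusted p-values under 0.05 (Benjamini-Hochberg, over all 13470 genes) from the quasi-likelihood test of edgeR; 0 of the 82 genes were called, where 0.0817% of all genes were, and DESeq2 and limma also called 0. At an unadjusted p under 0.05 there was 1, Rps27l, where 13.7% of all genes passed. The median log2 fold change of the 82 genes was -0.08, with 66 negative and 16 positive, against 0.01 over all genes. Without KD-Nap1l2 replicate 1 the median was 0.04 with 32 negative, without KD-Nap1l2 replicate 2 it was -0.21 with 79 negative, and without NC replicate 1 it was -0.01 with 46 negative, so the sign of the shift rested on single libraries. Both KD-Nap1l2 libraries lay below both NC libraries for 13 of the 82 genes, or 15.9%, where 21.2% of all genes did.

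Rps27l, a paralogue of the small subunit gene Rps27 known as a target of the tumour suppressor p53, had 899 and 976 normalized counts in NC, against 1118 and 1197 in KD-Nap1l2. After induction it had 1010 and 1005 in NC-7d and 1182 and 1201 in KD-Nap1l2-7d. The libraries labelled KD-Nap1l2 were thus above the NC libraries at both times, and the groups did not overlap. Of all genes, 22.0% had both KD-Nap1l2 libraries above both NC libraries before induction, and 21.0% had this at 7 days. The share of all genes with both was not counted. The log2 fold change was 0.30 (SE 0.11, 95% interval 0.05 to 0.56) before induction and 0.24 (SE 0.11, -0.01 to 0.50) after, with adjusted p-values of 0.281 and 0.653 by edgeR, so neither passed. Its relative Rps27, which sits near the mRNA exit of the small subunit, had 3921 and 5003 normalized counts in NC, against 3992 and 4613 in KD-Nap1l2, which overlap.

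Among genes with a mean of at least 50 counts, the largest negative values before induction belonged to Rpl30, Rpl23a and Rps23. Rpl30, a large subunit protein at chr15:34440505-34443276 of GRCm38.p6, had 7133 and 6777 normalized counts in NC, against 5291 and 6143 in KD-Nap1l2. All NC values were higher, and the log2 fold change was -0.28 (SE 0.13, 95% interval -0.58 to 0.02, edgeR adjusted p = 0.391). Rpl23a, which lies at the mouth of the exit tunnel, gave -0.27 (SE 0.14) and Rps23, a protein of the decoding site, -0.26 (SE 0.14). Rpl13a had 10430 and 9028 normalized counts in NC and 8813 and 12860 in the KD-Nap1l2 libraries, so replicate 2 alone lay above NC. It gave 0.16 (SE 0.19), and -0.14 without that library.

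After 7 days of induction, NC cells had lower values for nearly all ribosomal protein genes. The log2 fold change from NC to NC-7d was negative for 77 of the 82 genes, with a median of -0.25 (interquartile range -0.32 to -0.18), against -0.004 over all 13470 genes. Both NC-7d libraries lay below both NC libraries for 66 of the 82 genes, or 80.5%, where 28.4% of all genes did so. Since the genes shift together, these counts are not independent evidence from each gene. The median was close in size to the 0.23 between the KD-Nap1l2 replicates, where 78 of the 82 genes moved in 1 direction. Against the NC mean, the uninduced KD-Nap1l2 replicate 1 had a median of -0.21 and the NC-7d libraries had -0.27 and -0.24. No single gene passed the test: 0 of 82 were called by edgeR, DESeq2 and limma, where 8.21% of all genes were called by edgeR. At an unadjusted p under 0.05 edgeR gave 13 genes, all lower, or fewer in proportion than the 24.5% of all genes, and DESeq2 gave 19. The edgeR count was 1 without NC replicate 1, 4 without either NC-7d library, 6 without either KD-Nap1l2-7d library and 24 without either KD-Nap1l2 library. The median kept its sign without each of the 8 libraries, between -0.30 and -0.20. In bulk RNA a lower share of these transcripts in each cell cannot be told apart from a change in which cells the culture holds.

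Large and small subunit genes had like medians, -0.26 over 43 and -0.24 over 31 genes. The 95% interval of a log2 fold change had a median half-width of 0.35, so shifts of this size in single genes were at the limit of what 2 libraries a group can show. The intervals stayed within 1.5-fold in either direction for 39 of the 82 genes and within 2-fold for 79.

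Among large subunit genes, Rpl34 had 1165 and 1081 normalized counts in NC and 931 and 693 in NC-7d. Rpl3, whose protein reaches towards the peptidyl transferase centre, had 25028 and 20464 in NC and 16601 and 16798 in NC-7d. Their log2 fold changes were -0.47 (SE 0.17, 95% interval -0.87 to -0.07, edgeR adjusted p = 0.146) and -0.45 (SE 0.17, -0.85 to -0.04, adjusted p = 0.165). Rpl11, which with Rpl5 forms a complex with the smallest ribosomal RNA of the large subunit and binds the p53 regulator Mdm2 when it is free, had 6850 and 5946 in NC and 4210 and 5222 in NC-7d. Rpl39, a protein of the exit tunnel wall, had 4784 and 3858 in NC and 3412 and 3021 in NC-7d. These gave -0.44 (SE 0.17) and -0.43 (SE 0.15), with adjusted p-values of 0.162 and 0.139, the latter the smallest among the 82 genes in this comparison. Rpl5 itself had 9780 and 8397 in NC and 7891 and 8060 in NC-7d, and -0.19 (SE 0.15).

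Further large subunit genes of the fixed list gave -0.37 for Rpl10, which joins the subunit late in its maturation, -0.37 for Rpl7 and -0.31 for Rpl22, with SEs of 0.18, 0.15 and 0.19. In each, both NC-7d libraries were below both NC libraries. Rpl29 and Rpl10a had the highest values of the large subunit, 0.04 and 0.03 (SE 0.16 each), and their groups overlapped. Rpl29 had 579 and 714 normalized counts in NC and 637 and 689 in NC-7d.

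Among small subunit genes, Rps27a, which is made as a fusion with ubiquitin, had 6089 and 5192 normalized counts in NC and 4409 and 4313 in NC-7d, which gave a log2 fold change of -0.37 (SE 0.14, 95% interval -0.69 to -0.05, edgeR adjusted p = 0.147). Rpsa, also known as the laminin receptor, had 23396 and 21644 in NC and 18503 and 19267 in NC-7d, and gave -0.25 (SE 0.14). Rps4x, encoded on the X chromosome, had 22016 and 18331 in NC and 16313 and 17012 in NC-7d, and gave -0.28 (SE 0.16). Rps3, a protein of the mRNA entry site, had 9639 and 8726 in NC and 7616 and 7852 in NC-7d, and gave -0.25 (SE 0.13). The groups did not overlap in any of these. Rps6 had 969 and 681 normalized counts in NC and 767 and 681 in NC-7d, which overlap, and gave -0.19 (SE 0.19), or 0.09 without NC replicate 1.

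The stalk genes had unlike values. Rplp1 had 10045 and 8965 normalized counts in NC and 7443 and 7995 in NC-7d, groups that did not overlap, with a log2 fold change of -0.30 (SE 0.15, edgeR adjusted p = 0.266). Rplp0, the protein that anchors the stalk, had 21968 and 20638 in NC and 19400 and 21175 in NC-7d, and Rplp2, the partner of Rplp1, had 4601 and 4181 against 4055 and 4198. Both of these overlapped, at -0.07 (SE 0.15) and -0.09 (SE 0.14). Differences between the 3 genes were not tested.

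Of the paralogues, Rpl22l1 had the largest negative value among genes with a mean of at least 50 counts. It had 716 and 526 normalized counts in NC and 400 and 457 in NC-7d, and 528 and 564 in KD-Nap1l2 against 300 and 469 in KD-Nap1l2-7d. The groups did not overlap in either comparison, and the log2 fold changes were -0.53 (SE 0.23, 95% interval -1.07 to 0.005) and -0.51 (SE 0.23, -1.05 to 0.03), with edgeR adjusted p-values of 0.207 and 0.184. Rpl22l1 (chromosome 3, 28805508 to 28807424, GRCm38.p6) is the paralogue of Rpl22 and is held down by Rpl22 protein in other cells. Rps27l, with 0.10 (SE 0.11), was the 1 gene of the set, or 1.22%, whose NC-7d libraries were both above NC, where 29.4% of all genes were. Rpl7l1 overlapped, at -0.01 (SE 0.16).

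In KD-Nap1l2 cells the same induction gave a smaller median. The log2 fold change from KD-Nap1l2 to KD-Nap1l2-7d was negative for 57 of the 82 genes, with a median of -0.06, against -0.007 over all genes. Both KD-Nap1l2-7d libraries lay below both KD-Nap1l2 libraries for 15 genes, or 18.3%, where 30.6% of all genes did, and above them for 4 genes, or 4.88%, where 30.8% of all genes did. None was called, where 14.2% of all genes were called by edgeR, and DESeq2 and limma also gave 0. At an unadjusted p under 0.05 there were 2, Rps27 and Rpl31, where 31.4% of all genes passed. Without KD-Nap1l2 replicate 2 the median was 0.06 with 28 negative, and without KD-Nap1l2 replicate 1 it was -0.16 with 73 negative and 10 genes at an unadjusted p under 0.05.

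Rps27 had 3992 and 4613 normalized counts in KD-Nap1l2 and 3151 and 3311 in KD-Nap1l2-7d, which gave a log2 fold change of -0.41 (SE 0.15, 95% interval -0.77 to -0.06, edgeR adjusted p = 0.110). Rpl31, at the exit of the tunnel, had 5572 and 6340 in KD-Nap1l2 and 4481 and 5001 in KD-Nap1l2-7d, and in NC cells 6255 and 5915 against 4567 and 5087. Its values were -0.33 in both cell populations, with an SE of 0.14 each. The 4 genes with both induced libraries higher were Rpl23, Rpl30, Rpl27 and Rps3. Rpl23 had 3268 and 4178 in KD-Nap1l2 and 4184 and 4355 in KD-Nap1l2-7d, and gave 0.20 (SE 0.15). Rpl30 had 5291 and 6143 against 6280 and 6522, and gave 0.16 (SE 0.13). Of these, Rpl30, Rpl27 and Rps3 were also lower in both NC-7d libraries than in both NC libraries, which makes 3 of the 82 genes, or 3.66%, where 1.93% of all genes had both.

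**Figure D3:**
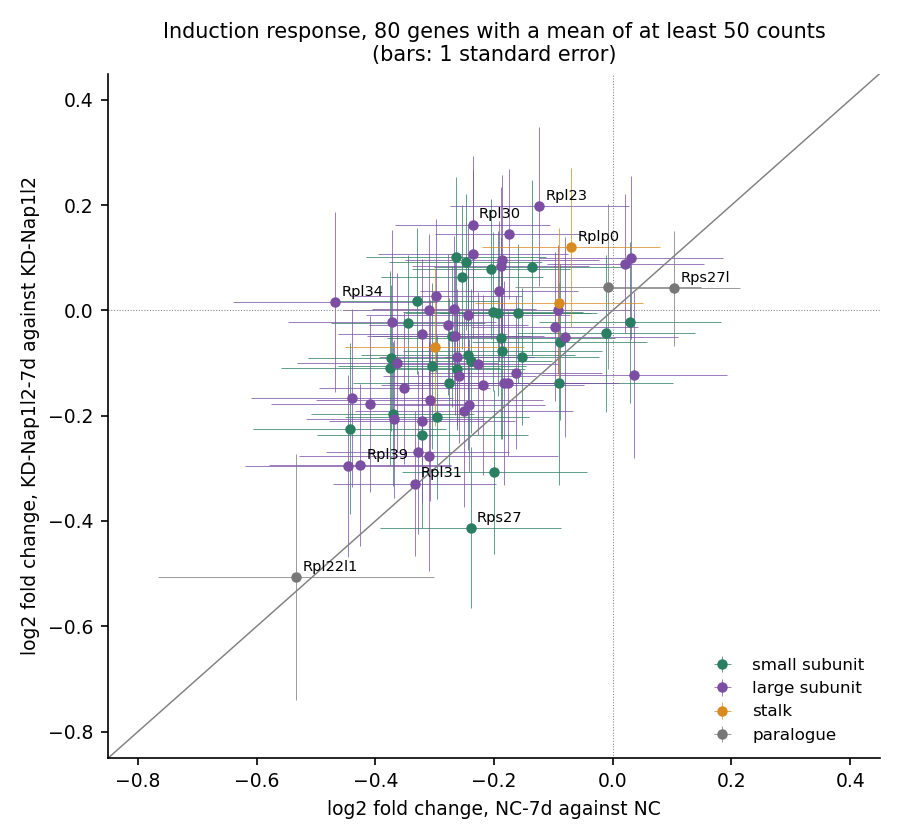
Log2 fold change over 7 days in NC cells (x axis) and in KD-Nap1l2 cells (y axis) for the 80 genes with a mean of at least 50 counts, coloured by role, with bars of 1 standard error and a grey line of equal change. Most points lie left of 0 and above the line, with Rps27 below it and Rpl22l1 and Rpl31 close to it.

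At 7 days, the libraries labelled KD-Nap1l2-7d were above NC-7d libraries for most of the set. The comparison uses the induced libraries of both comparisons before it, so the 3 are not independent of each other. The log2 fold change was positive for 64 of the 82 genes, with a median of 0.09 against -0.006 over all genes, and the KD-Nap1l2-7d libraries were both above the NC-7d libraries for 42 genes, or 51.2%, where 21.0% of all genes were. For 7 genes, or 8.54%, the KD-Nap1l2 libraries also lay below both NC libraries before induction, where 2.64% of all genes had both, and 3 of the 7 (Rpl27, Rpl30 and Rps3) had the opposite induction responses as well, where 0.646% of all genes did. The median of 0.09 was below the spread of 0.10 that the members' median showed between replicates. Since the genes shift together, these counts are not independent evidence from each gene. The median ran from 0.04 to 0.14 when each library was left out in turn, with 53 to 76 positive. None of the genes was called, as none of all 13470 was (0%), although DESeq2 called 82 genes, none of them ribosomal. At an unadjusted p under 0.05 there was 1 gene, Rpl34, where 7.85% of all genes passed.

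Rpl34 had 931 and 693 normalized counts in NC-7d and 1149 and 1031 in KD-Nap1l2-7d, for a log2 fold change of 0.42 (SE 0.17, 95% interval 0.03 to 0.82, edgeR adjusted p = 0.602). Rpl4, which reaches into the exit tunnel, had 15776 and 15898 against 20251 and 18075, and gave 0.28 (SE 0.16). Rpsa had 18503 and 19267 against 22701 and 22602, and gave 0.26 (SE 0.14). In these 3 the groups did not overlap. Rps27 and Rpl21 were the 2 genes, or 2.44%, with both KD-Nap1l2-7d libraries below both NC-7d libraries, where 21.0% of all genes had this. These 2 genes gave -0.23 (SE 0.15) and -0.14 (SE 0.15). With the counts of near-identical copies added, described below, the groups overlapped in both. The groups of Rpl34 then overlapped as well, and its value went from 0.42 to 0.16. Rpl22l1 gave -0.16 (SE 0.23) with overlap.

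The difference between the induction responses, that of KD-Nap1l2 cells minus that of NC cells, had a median of 0.16 on the log2 scale over the 82 genes, with 75 positive and 7 negative, against -0.02 over all genes. No gene was called, nor was any of all 13470 (0%), while DESeq2 called 100 genes, none of them ribosomal. No member had an unadjusted p under 0.05 by edgeR or DESeq2 and 1 had by limma, where 7.04% of all genes had one by edgeR. The half-width of the 95% interval had a median of 0.49 for this difference, more than the median shift itself. Leaving out KD-Nap1l2 replicate 1 gave a median of 0.05 with 55 positive, and leaving out replicate 2 gave 0.29 with 78 positive. Among genes with a mean of at least 50 counts, the largest values were those of Rpl34, 0.48 (SE 0.24), and Rpl30, 0.40 (SE 0.18), with edgeR adjusted p-values of 0.722 and 0.716. The lowest were those of Rps27, -0.17 (SE 0.22), Rpl29, -0.16 (SE 0.22), and Rps29, -0.11 (SE 0.22). With the counts of near-identical copies added, described below, Rpl34 gave 0.21, Rpl30 0.43, Rps27 0.28 and Rpl29 0.21.

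**Figure D4:**
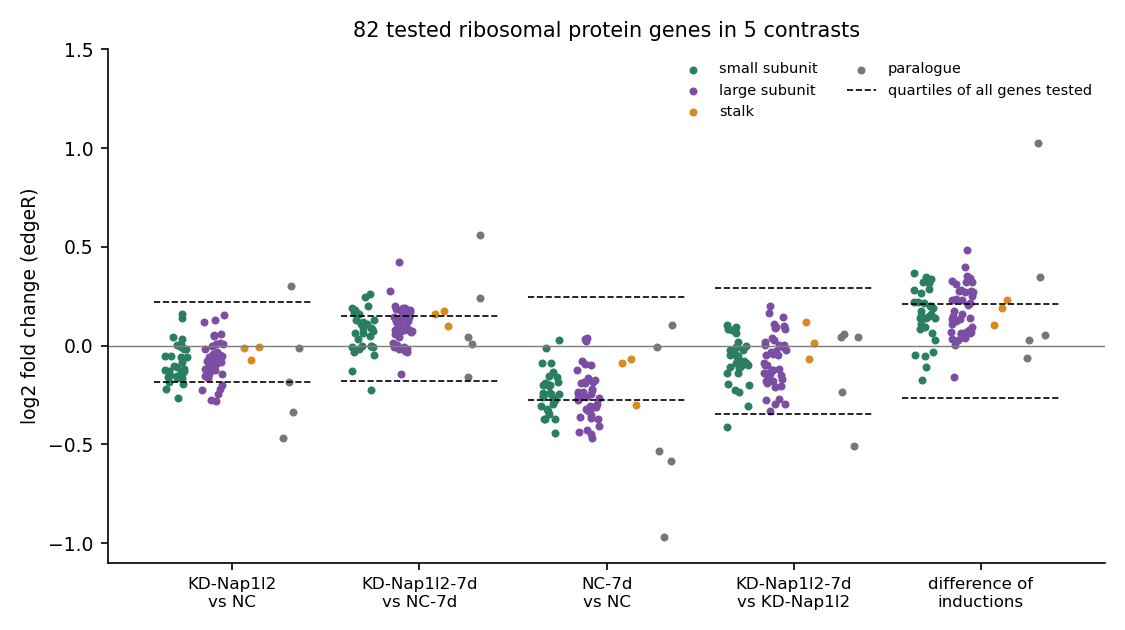
Log2 fold change (edgeR) of the 82 tested genes in 5 contrasts, coloured by role; dashed lines mark the quartiles of all 13470 genes. In NC-7d against NC, 77 points are below 0, and the point near -1 is Rpl32l, a paralogue with 6.71 to 31.5 normalized counts per library.

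Several ribosomal protein genes have near-identical copies in the table, among which the counting program must divide shared reads. An open reading frame at least 95% identical over at least 80% of its length was found for 10 genes, with 15 copies, and for 6 genes (Rpl21, Rpl29, Rpl31, Rpl34, Rpl37 and Rps27) a copy held at least 10% of the member's own count. Gm8210 had a mean of 6515 normalized counts where Rpl29, 99.4% identical to it, had 666, and Rpl34-ps1 had 2591 where Rpl34 had 1026. The annotation cannot say which of these loci the reads came from, so values of single genes in these families are uncertain.

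With the copies' counts added, a step chosen after seeing the data, 14 of the 24 values of these 6 genes in the 4 comparisons of groups changed by more than 0.1 on the log2 scale, in all of the genes but Rpl31. Rps27rt, identical to Rps27 in its reading frame, had 2861 and 1037 normalized counts in NC, 885 and 1706 in KD-Nap1l2, 1097 and 901 in NC-7d and 1523 and 2127 in KD-Nap1l2-7d. The sum of the pair was 6783 and 6040 in NC, 4877 and 6319 in KD-Nap1l2, 4898 and 4661 in NC-7d and 4674 and 5439 in KD-Nap1l2-7d. For Rps27, the log2 fold change went from -0.24 to -0.42 in NC-7d against NC, from -0.41 to -0.15 in KD-Nap1l2-7d against KD-Nap1l2, and from -0.23 to 0.08 in KD-Nap1l2-7d against NC-7d. For Rpl34, it went from -0.47 to -0.26 in NC-7d against NC and from 0.42 to 0.16 in KD-Nap1l2-7d against NC-7d. For Rpl29 it went from 0.04 to -0.18 and for Rpl37 from -0.10 to -0.29 in NC-7d against NC, and with copies both NC-7d sums lay below both NC sums. For Rpl21 it went from -0.14 to -0.03 in KD-Nap1l2-7d against NC-7d, where the sums were 8029 and 8560 in NC-7d and 8010 and 8284 in KD-Nap1l2-7d, which overlap. The median of all 82 genes was -0.26 in NC-7d against NC with the copies added and -0.25 without.

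**Figure D5:**
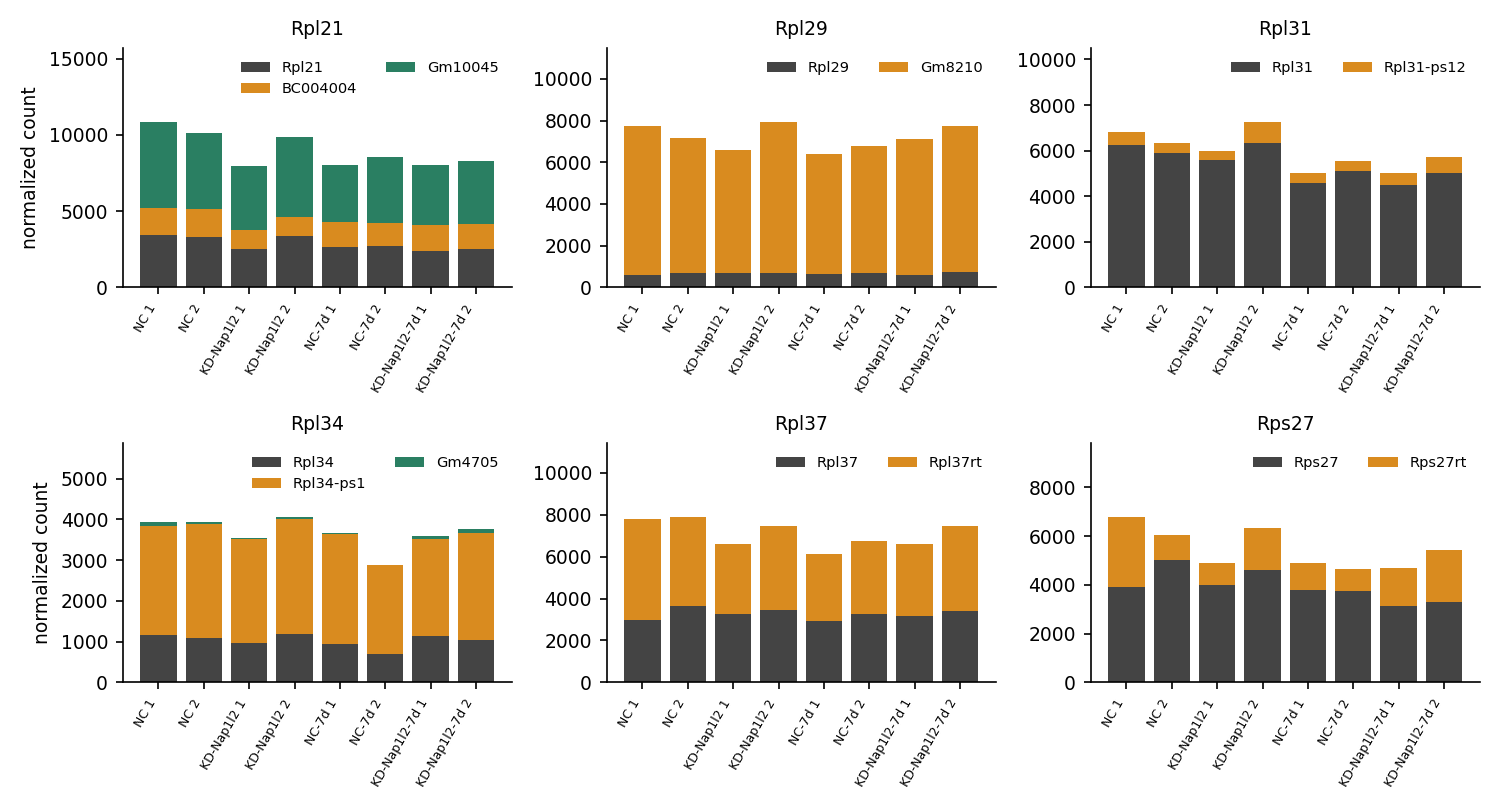
Normalized counts of 6 ribosomal protein genes (dark) and of their near-identical copies (orange and green), stacked for each of the 8 libraries. Gm8210 holds most of the Rpl29 family's counts, and the part of Rps27rt differs between the NC replicates, with 2861 and 1037.

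Transcript models add a further division of reads. Of the 84 genes, 51 had 1 transcript in the deposited transcript table, and 15 had a second transcript with a mean share of at least 5% of the gene's counts. The share of the second transcript was largest in Rpl22l1, from 30.0% to 55.6% over the 8 libraries, and in Rps28, from 30.5% to 46.4%. In Rpl22l1 it was 55.6% and 34.9% in NC and 37.4% and 30.0% in NC-7d, and 32.5% and 41.9% in KD-Nap1l2 and 48.4% and 47.6% in KD-Nap1l2-7d, so the replicates differed by up to as much as the groups. In Rpl5 the share was steady, from 12.7% to 15.4%.

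Other genes of the translation machinery were read from lists chosen with earlier results of these data known. Of ribosomal proteins whose symbols the rule does not match, Fau, a small subunit protein made as a fusion, gave a log2 fold change of -0.35 (SE 0.21) in NC-7d against NC and Rpl36al gave -0.03 (SE 0.11), and neither was called. Of the 18 translation factors and other TOP mRNAs, 14 were negative in NC, with a median of -0.05, and 0 were called, where 8.21% of all genes were. The lowest was Eif3e, an initiation factor subunit, at -0.33 (SE 0.13), and the highest Pabpc1, the cytoplasmic poly(A)-binding protein, at 0.44 (SE 0.15). In KD-Nap1l2 cells 12 of the 18 were positive, with a median of 0.08, and 0 were called, where 14.2% of all genes were.

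Genes that build ribosomes were mostly positive during induction. Of 40 ribosome biogenesis genes, 35 were positive in NC-7d against NC, with a median of 0.21 and 0 called, where 8.21% of all genes were. In KD-Nap1l2-7d against KD-Nap1l2, 38 were positive, with a median of 0.42 and 2 called, both higher, where 14.2% of all genes were called. The 2 were Gnl3 (nucleostemin), with 749 and 563 normalized counts in KD-Nap1l2 and 1495 and 1211 in KD-Nap1l2-7d (log2 fold change 1.04, SE 0.22, edgeR adjusted p = 0.022), and Pes1, a factor of large subunit assembly, with 1315 and 1256 against 1880 and 1821 (0.53, SE 0.12, adjusted p = 0.024). The most negative in NC cells was Npm1, a nucleolar chaperone, at -0.24 (SE 0.13). Mitochondrial ribosomal proteins, 78 in all, had medians of 0.04 in NC and 0.17 in KD-Nap1l2 cells, where Mrpl38, Mrps18a and Mrps18b rose by 0.70, 0.69 and 0.93 on the log2 scale (edgeR adjusted p = 0.036, 0.029 and 0.010). These 3 of 78 were called higher and 0 lower, where 14.2% of all genes were called.

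Regulators of TOP mRNAs and ribosome synthesis were mostly positive during induction. The list pools inhibitors with other regulators, so the count of positives has no common meaning. Of 15 tested, 14 were positive in NC cells with 2 called, where 8.21% of all genes were, and 15 in KD-Nap1l2 cells with 6 called, where 14.2% of all genes were. Deptor, an inhibitor of mTOR, had 777 and 692 normalized counts in NC and 5622 and 4224 in NC-7d, for a log2 fold change of 2.74 (SE 0.18, edgeR adjusted p = 0.00045), and rose by 2.05 (SE 0.18, adjusted p = 0.00088) in KD-Nap1l2 cells. Eif4ebp2, a repressor of cap-dependent initiation, rose by 0.78 (SE 0.14, adjusted p = 0.018) and 0.61 (SE 0.14, adjusted p = 0.031). Akt1s1, Maf1, Myc and Tsc1 also passed in KD-Nap1l2 cells, with values from 0.45 to 0.62, and for no gene of the list was the difference between the responses called.

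Cell cycle genes were mostly negative during induction as well. Of 24, 21 were negative in NC-7d against NC, with a median of -0.24 and 0 called, where 8.21% of all genes were. In KD-Nap1l2 cells 24 were negative, with a median of -0.88 and 5 called, where 14.2% of all genes were. One of the 5 was Mki67, with 8184 and 7209 normalized counts in KD-Nap1l2 and 3550 and 2927 in KD-Nap1l2-7d (log2 fold change -1.25, SE 0.32, edgeR adjusted p = 0.039). The NC-7d replicates stood apart from each other in this list, with 2581 and 5663 normalized counts of Mki67, while the median of the ribosomal protein genes differed by 0.04 between them. The part of these cell cycle differences in the ribosomal protein values was not tested. The mesenchymal markers had a median of -0.49 in NC and -0.67 in KD-Nap1l2 cells over 12 tested genes, with 2 and 6 called lower, where 8.21% and 14.2% of all genes were called in either direction, and their summed FPKM was 7772 to 8895 in NC and 5169 to 5686 in NC-7d.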

How the data were processed

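RNA from 8 libraries (4 groups of 2, by their labels) was analysed. The authors deposited estimated counts per gene and transcript, of which 41.1% of genes hold one that is not whole, and FPKM, their counts scaled to gene length and library reads. The submitters' processing notes name GRCm38.p6, BWA, Bowtie2 and RSEM. The authors' tables of comparisons (log2 fold changes, p and q-values) were not used.

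Counts were rounded. All 8 libraries were fitted in 1 model with edgeR 4.0.16 in R 4.3.3 (TMM, filterByExpr, quasi-likelihood test, 13470 genes, 4 residual degrees of freedom), with Benjamini-Hochberg adjustment and calls under 0.05. Standard errors (SE) were taken as the absolute log2 fold change over the square root of the F statistic; normalized counts are scaled by TMM. Library totals were 17420284 to 19427359 counts, and limits from counts cover counting error only. Alternatives were DESeq2 1.42.0, limma 3.58.1 on log2(FPKM + 1) and log2(FPKM + 0.1), RLE size factors, library totals, no filter, at least 10 counts in every library, the compared libraries only, a replicate block and leaving out each library. Adding near-identical copies (BLAST 2.17.0 of open reading frames, GENCODE vM21 transcripts) was chosen after seeing the data. The fits were tested on simulated data.

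Members and lists were chosen with earlier results of these data known. Named genes are called members, in each contrast the 3 largest rises and falls among members with a mean of at least 50 counts, the 3 highest and lowest FPKM, a fixed list, and called or extreme genes of the other lists. Members named outside this rule, for their copies, transcripts or high levels, were chosen after their values were seen. A few genes that these rules name entered the fits and counts but are not reported here. Gene positions and start sites are RefSeq's, GRCm38.p6.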

Additional observations from a re-analysis of the deposited data

Results flagged for a closer look

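3 ribosomal protein genes had responses of opposite sign in the 2 cell populations, with no overlap between libraries: Rpl27, Rpl30 and Rps3 were lower in both NC-7d libraries than in both NC libraries and higher in both KD-Nap1l2-7d libraries than in both KD-Nap1l2 libraries. They were 3.66% of the 82 tested genes, where 1.93% of all 13470 genes had this pattern. The same 3 were lower in KD-Nap1l2 than in NC before induction and higher at 7 days, again with no overlap, where 0.646% of all genes had both patterns. The difference between the responses was 0.32 for Rpl27 (SE 0.17), 0.40 for Rpl30 (SE 0.18) and 0.34 for Rps3 (SE 0.18) on the log2 scale, and the edgeR test of that difference gave adjusted p-values of 0.743, 0.716 and 0.741, so none passed. Rpl27 had 5737 and 5127 normalized counts in NC, 4727 and 5048 in KD-Nap1l2, 4813 and 4805 in NC-7d and 5423 and 5389 in KD-Nap1l2-7d. Rps3 had 7530 and 8257 in KD-Nap1l2 and 8282 and 8538 in KD-Nap1l2-7d. These patterns rest on the same 8 libraries and were picked out for their values. Groups of 2 libraries were too small for a search for outlying samples.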

How the results depend on the processing

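The count of called members was 0 in all 5 contrasts under the 18 alternatives, wherever an alternative could fit the contrast. The fit of the compared libraries only cannot give the difference between the responses. The medians of the members kept their sign and moved by less than the replicate spread of 0.10 under every alternative that kept all 8 libraries, for example from -0.26 to -0.24 in NC-7d against NC. Leaving out each library in turn gave -0.21 to 0.035 in KD-Nap1l2 against NC, 0.04 to 0.14 in KD-Nap1l2-7d against NC-7d, -0.30 to -0.20 in NC-7d against NC, -0.16 to 0.058 in KD-Nap1l2-7d against KD-Nap1l2 and 0.05 to 0.29 for the difference. A group left with 1 library is assumed to vary like the others. The log2 ratio of the share of counts in NC-7d against NC was -0.23, -0.20 as a share of FPKM and -0.24 without the 5 members with the most counts.

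Single genes turned under the copies: Rps27 gave 0.081 in KD-Nap1l2-7d against NC-7d and 0.28 for the difference, and Rpl29 gave -0.18 in NC-7d against NC and 0.21 for the difference. Rpl7l1 in NC-7d against NC was 0.00059 and 0.00066 on log2(FPKM + 1) and log2(FPKM + 0.1). With single libraries left out, values ranged from -0.14 to 0.40 for Rpl13a in KD-Nap1l2 against NC, from -0.52 to 0.13 for Rpl22l1 in KD-Nap1l2-7d against NC-7d, from -0.11 to 0.17 for Rpl10a, -0.11 to 0.20 for Rpl29, -0.23 to 0.054 for Rpl37, -0.42 to 0.086 for Rps6 and -0.10 to 0.092 for Rpl7l1 in NC-7d against NC, and from -0.27 to 0.033 for Rps29 in the difference.

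Correlations of same-numbered libraries between groups lay between -0.06 and 0.10. The values thus show no common deviation by number, but cannot tell whether these libraries were handled together. With the replicate block the members' medians were -0.09, 0.09, -0.26, -0.06 and 0.17 in the order above, and 4 genes in all were called in KD-Nap1l2 against NC. Over all genes, edgeR called 11, 0 and 0 in the contrasts with a knockdown term, where DESeq2 called 454, 82 and 100, and limma with pseudocounts of 1 and 0.1 called 33 and 18 in the first. The cause was not tested. With 2 libraries a group, changes under the interval's half-width of 0.35 could not be told from 0 in a typical member.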
